A study of Caenorhabditis elegans with 6 samples.

Results

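The annular furrow collagens of Caenorhabditis elegans are dpy-2, dpy-3, dpy-7, dpy-8, dpy-9 and dpy-10, the 6 collagen genes known from genetics to be needed for the ring-shaped grooves of the cuticle. They were chosen by name, not by any measured value, though with earlier results of these data known. They are 6 of the 18889 genes on the array. Each was measured by 1 probe, and these are 6 of 22490 gene probes. Transcript levels were compared between worms exposed to the low dose mixture (LDM) of the organophosphorus insecticides chlorpyrifos (CPF) and diazinon (DZN) and control worms. All worms were of the wild type strain N2 (Bristol), hatched from bleached eggs on NGM dishes with E. coli OP50 as food, kept at 16 °C and collected at 72 h in the L3 and L4 larval stages. The labels give 0.5 mg/ml of CPF and 1 mg/ml of DZN, while the methods give the same figures per litre. Control worms received the solvent, acetone. Each sample held the whole worms of several pooled dishes, and each of 6 arrays set 1 LDM sample against 1 control sample, with the LDM sample in Cy5 on 3 arrays and in Cy3 on the other 3.

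The worm's cuticle is a collagen matrix that the epidermis secretes anew at each moult. Its surface is divided by circumferential furrows into narrow rings, and the 6 collagens are laid down in or below these furrows. Loss of any of them removes the furrows, gives short and fat worms of the Dumpy (dpy) type, and in mutants switches on genes for osmolyte synthesis, antimicrobial peptides and detoxification. Collagen genes are transcribed in waves within each larval stage, and those of the furrows are among the early ones. In RNA of whole worms, fewer epidermal cells and less RNA per cell cannot be told apart.

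The furrow collagens were measured on every array. All 36 spots (6 probes on 6 arrays) were unmarked by the image software and above background in both dyes, and 0 held saturated pixels. Their foreground intensities lay between 1166 and 50580, against local backgrounds of 151 to 182. Where LDM was in Cy5, 37.6 to 41.9% of all gene spots escaped a mark, and 56.5 to 61.4% did so where it was in Cy3. Among the unmarked genes replicates 2 and 3 of LDM in Cy5 had opposed ratios (r = -0.35, across genes, which are not independent replicates), although the labels give both the same dyes. The scanner headers give the control extracts of LDM in Cy5 replicate 3 and LDM in Cy3 replicate 1 the same number, and the image analysis of the latter was dated after that of the other 5 arrays. All 6 epidermal marker genes were above background on at least 4 arrays, and so were all 6 of the intestine, 5 of 6 of body wall muscle, all 6 of neurons and all 6 of the germline.

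The 6 furrow collagens had a mean ratio of LDM over control below 1, and none of them passed the test. Their log2 ratios, averaged over 6 arrays, ran from -0.41 for dpy-7 to -0.06 for dpy-3, that is from 0.752 to 0.958 of the control level. In limma with Benjamini-Hochberg adjustment over 7989 tested genes, 0 of the 6 were called at an adjusted p under 0.05, where 0.376% of all tested genes were called, 0.313% higher and 0.0626% lower. Before adjustment, at a p under 0.05, 1 member (dpy-7) was lower and 0 were higher, beside 4.92% lower and 4.41% higher among all tested genes. Rank product, the test that the study's methods name, was run with p-values from a gamma distribution in place of permutations. It called 0 members at a percentage of false positives under 0.05, beside 1.16% higher and 0.431% lower of 6491 genes measured on all arrays. A ratio below 0 on the log2 scale was itself common, at 55.1% of all tested genes. Of the members, 3 (dpy-2, dpy-7 and dpy-8) were below 0 on at least 5 of 6 arrays, as were 16.6% of the genes measured on all arrays. The median log2 ratio was -0.21 for the members and -0.03 for all tested genes.

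**Figure D1:**
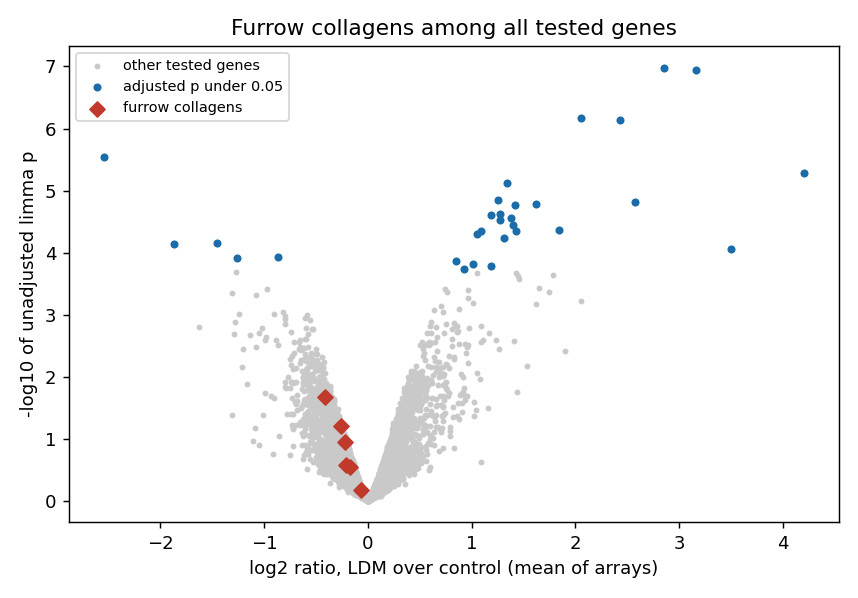
Each point is 1 of 7989 tested genes, with the mean log2 ratio of LDM over control over up to 6 arrays on the x axis and -log10 of the unadjusted limma p on the y axis. The 6 furrow collagens (red diamonds) sit between -0.41 and -0.06, left of 0 and below the 30 genes with an adjusted p under 0.05 (blue).

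DPY-7 is a collagen that marks the furrows themselves, and the promoter of dpy-7 is widely used to drive expression in the epidermis. With LDM in Cy5, the log2 ratio of dpy-7 (F46C8.6) was -0.62, -0.73 and -0.20 on replicates 1, 2 and 3. With LDM in Cy3 it was 0.07, -0.56 and -0.42. The ratio was thus below 0 on 5 arrays and close to 0 on LDM in Cy3 replicate 1. Normalized control levels on the log2 scale were 14.43, 14.08 and 14.52 with LDM in Cy5 and 14.61, 14.87 and 14.64 with LDM in Cy3. LDM levels of dpy-7 were 13.81, 13.35 and 14.32 in the first orientation and 14.68, 14.32 and 14.22 in the second. The ranges overlapped, from 14.08 to 14.87 in control worms and from 13.35 to 14.68 in LDM worms, and the LDM level was lowest on LDM in Cy5 replicate 2 and highest on LDM in Cy3 replicate 1. The mean log2 ratio was -0.41 ± 0.14 (SE, n = 6), a fold of 0.752 with a 95% interval of 0.599 to 0.946, and the limma p of 0.0210 became 0.428 after adjustment over all genes. The SE and 95% interval of each mean ratio are limma's moderated values, which draw on the variance of all tested genes. Without LDM in Cy3 replicate 1 the log2 ratio of dpy-7 was -0.50 and its limma adjusted p 0.607. Estimated array weights brought dpy-7 to a log2 ratio of -0.49 with a limma adjusted p of 0.0147, in a fit that called 574 genes higher and 834 lower.

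The gene dpy-8 (C31H2.2) encodes another collagen of the furrow group. Its log2 ratio was -0.35, -0.37 and -0.68 with LDM in Cy5 and 0.10, -0.18 and -0.08 on those with LDM in Cy3. The lowest 3 values were thus the 3 arrays of 1 orientation, and the mean was -0.47 ± 0.18 (SD, n = 3) with LDM in Cy5 and -0.05 ± 0.14 (SD, n = 3) with LDM in Cy3. This was the widest gap between orientations among the members, -0.41 on the log2 scale, and the dye term did not pass the test (limma adjusted p = 0.848). Control levels of dpy-8 were the least spread of the members, from 14.12 to 14.28 on the log2 scale. Its LDM levels ran from 13.60 to 14.22, and only the highest of these, on LDM in Cy3 replicate 1, reached into the control range. Over all arrays the log2 ratio was -0.26 ± 0.12 (SE, n = 6), a fold of 0.834 with a 95% interval of 0.688 to 1.01, and the limma adjusted p was 0.568. Scale normalization between arrays brought it to -0.17.

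**Figure D2:**
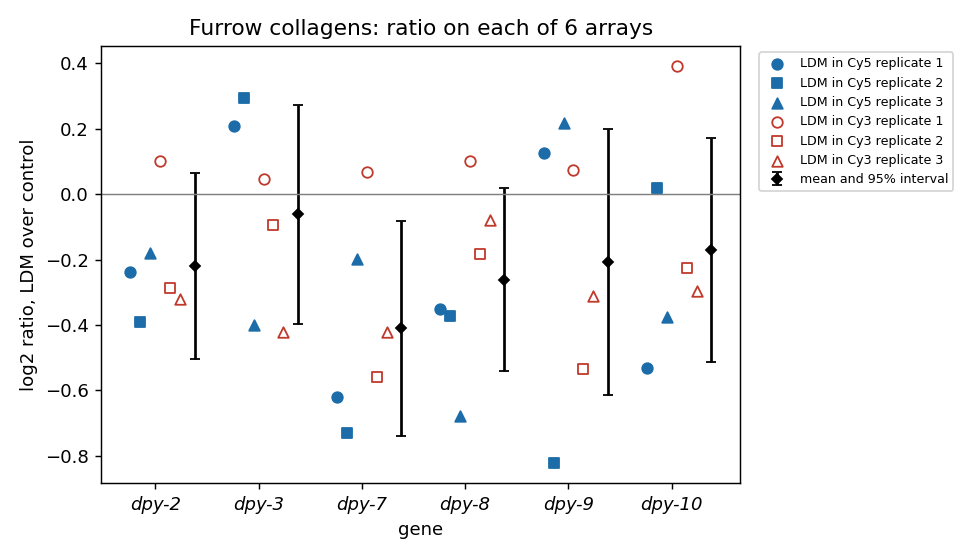
Points are the log2 ratios of LDM over control of each furrow collagen on each array (y axis), filled with LDM in Cy5 and open with LDM in Cy3, and black diamonds are the means with 95% intervals. LDM in Cy3 replicate 1 (open circles) lies above 0 for all 6 genes, between 0.05 and 0.39, and only the interval of dpy-7 leaves out 0.

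The genes dpy-2 (T14B4.6) and dpy-10 (T14B4.7) lie close together on a chromosome, with 1 protein-coding gene between them in the RefSeq table of WBcel235. Both encode furrow collagens. Mutant alleles of dpy-10 give Dumpy or left-rolling worms and serve as a visible marker in genome editing. For dpy-2 the log2 ratio was -0.24, -0.39 and -0.18 with LDM in Cy5 and 0.10, -0.29 and -0.32 with LDM in Cy3. It was below 0 on 5 arrays, and its SD between arrays, 0.17, was smaller than that of all but 4.61% of the genes measured on every array. Control levels of dpy-2 ran from 14.60 to 15.02 and LDM levels from 14.31 to 15.03, an overlap over the whole control range. The mean log2 ratio of dpy-2 was -0.22 ± 0.12 (moderated limma SE, n = 6), with a limma adjusted p of 0.648. Its fold was 0.859 with a 95% interval of 0.706 to 1.05. With median centring alone the log2 ratio was -0.07.

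The nearby gene dpy-10 had log2 ratios of -0.53, 0.02 and -0.38 with LDM in Cy5 and of 0.39, -0.23 and -0.30 with LDM in Cy3. Values above 0 came from 1 array of each orientation, and 0.39 was the highest ratio of any member on any array. Control levels of dpy-10 spread from 13.46 to 14.85, and LDM levels, from 13.48 to 14.48, fell inside that range. The lowest level of both channels came from LDM in Cy5 replicate 2. The mean log2 ratio was -0.17 ± 0.15 (SE, n = 6), a fold of 0.889 with a 95% interval of 0.701 to 1.13 and a limma adjusted p of 0.792. It was -0.10 with median centring alone, -0.07 with scale normalization between arrays and -0.28 with array weights. It was -0.11 when either LDM in Cy5 replicate 1 or LDM in Cy3 replicate 3 was left out. Over the 6 arrays the ratios of dpy-2 and dpy-10 had r = 0.58 (exact permutation p = 0.236, two-sided, adjusted p = 0.708 over 15 pairs) and rho = -0.03 (exact permutation p = 1.00, adjusted p = 1.00).

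The gene dpy-9 (T21D12.2), whose collagen is likewise needed for furrows, had the widest spread of the 6. Its log2 ratio was 0.13, -0.82 and 0.22 with LDM in Cy5 and 0.07, -0.53 and -0.31 with LDM in Cy3. It was above 0 on 3 arrays and below 0 on 3, and each orientation held both signs. Control levels were 14.27, 14.20 and 13.87 with LDM in Cy5 and 12.62, 13.77 and 14.06 with LDM in Cy3. LDM levels were 14.39, 13.38 and 14.09, then 12.69, 13.23 and 13.75. Both channels of LDM in Cy3 replicate 1 stood lowest, so that the ratio there was near 0 while the level was not near that of the other arrays. The mean log2 ratio of dpy-9 was -0.21 ± 0.17 (SE, n = 6), a fold of 0.865 with a 95% interval of 0.653 to 1.15 and a limma adjusted p of 0.788. Leaving out LDM in Cy5 replicate 2 brought it to -0.04, array weights to -0.14 and the median of spot pixels to -0.13.

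The last member, dpy-3 (EGAP7.1), encodes a furrow collagen whose loss also gives Dumpy worms. Its log2 ratio was 0.21, 0.30 and -0.40 with LDM in Cy5 and 0.05, -0.10 and -0.42 with LDM in Cy3. These values were split evenly, with 3 arrays above 0 and 3 below. Control levels of dpy-3 ran from 11.11 to 12.22 and lay within the range of its LDM levels, from 10.69 to 12.43. The mean log2 ratio was -0.06 ± 0.14 (SE, n = 6), a fold of 0.958 with a 95% interval of 0.760 to 1.21 and a limma adjusted p of 0.942. Its direction was not stable: the log2 ratio was 0.05 without LDM in Cy5 replicate 3, 0.00 without LDM in Cy3 replicate 3 and 0.04 with array weights.

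**Figure D3:**
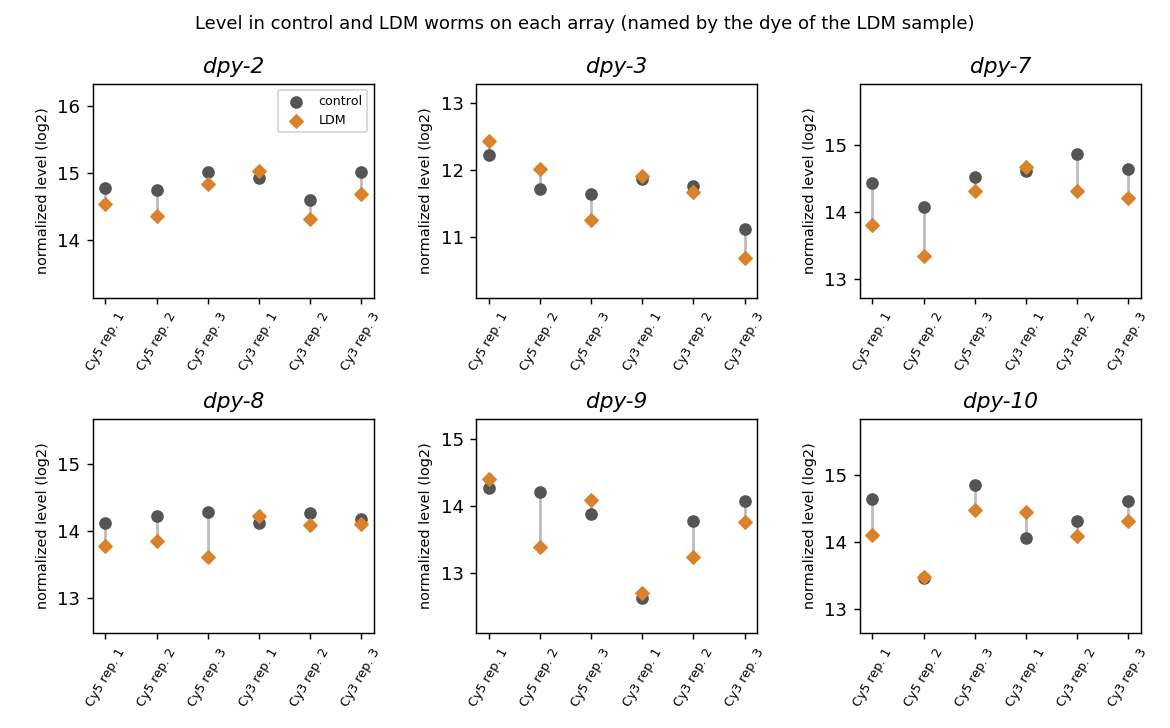
Each panel gives the normalized log2 level of 1 furrow collagen (y axis) in the control (grey circles) and LDM (orange diamonds) channel of each array (x axis, named by the dye of the LDM sample), with a line joining the channels of an array. Control and LDM levels overlapped for all 6 genes, and the levels of dpy-9 on LDM in Cy3 replicate 1, 12.62 and 12.69, lie lowest in its panel.

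Read by array, the members were mostly below 0 on 5 arrays and above 0 on the other. With LDM in Cy5, replicate 1 had 4 members below 0, replicate 2 had 4 and replicate 3 had 5, beside 53.4, 51.5 and 53% of all genes measured on every array. The members' median log2 ratios on these were -0.29, -0.38 and -0.29. With LDM in Cy3, replicates 2 and 3 had 6 of 6 below 0, beside 54.3 and 50.5% of all genes, and medians of -0.26 and -0.32. Replicate 1 of that orientation had 0 of 6 below 0, beside 50.5% of all genes, and a median of 0.09. Over all genes the median lay between -0.05 and 0.00 on every array. Across the 36 values, 25 were below 0, 11 were above 0, and none went beyond 1 in either direction. Without LDM in Cy3 replicate 1 the mean log2 ratios of dpy-2, dpy-3, dpy-8, dpy-9 and dpy-10 were -0.29, -0.11, -0.30, -0.29 and -0.28. None of the 6 members was called in that fit.

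Whether the 6 collagens moved together from array to array was asked for each of the 15 pairs. Pearson's r lay between -0.40 (dpy-3 and dpy-7) and 0.90 (dpy-2 and dpy-7), with a median of 0.31, and 10 pairs were positive. The highest r, of dpy-2 with dpy-7, had an exact two-sided permutation p of 0.0167 that became 0.250 after adjustment over the 15 pairs. Its rho was 0.77 (exact permutation p = 0.103, adjusted p = 0.771), and r was 0.51 without the 2 arrays farthest from the median of dpy-2. No pair passed after adjustment, by r or by rho, and 1 passed by r before it. With the 2 arrays farthest from the median of each pair's lower-numbered gene left out, 6 of the 15 were positive. Within an orientation 3 arrays are too few for a correlation.

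Differences between the ratios of members were compared within arrays for the same 15 pairs. An exact sign-flip permutation test over 6 arrays can reach no p under 0.0312, and after adjustment over 15 pairs none passed (lowest adjusted p = 0.469), which does not show that the members moved alike. The pair that reached the smallest p was dpy-2 and dpy-7, where dpy-2 exceeded dpy-7 by 0.19 ± 0.16 (SD, n = 6) on the log2 scale, on 6 of 6 arrays (exact permutation p = 0.0312). The widest mean gap, 0.35 between dpy-3 and dpy-7, was above 0 on 3 arrays and below 0 on the other 3 (exact permutation p = 0.250, two-sided, adjusted p = 0.804).

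The genes most like the furrow collagens in pattern were found by Pearson's r between a gene's ratios and the members' mean ratio over the 6 arrays, among 6485 other genes measured on all of them. The first 8 were Y54F10AM.8 (0.97), cth-1 (0.97), aqp-11 (0.95), pbs-7 (0.93), C14C6.5 (0.92), ergi-2 (0.92), gst-26 (0.92) and Y48G10A.2 (0.90). By their names cth-1 encodes a cystathionine gamma-lyase, aqp-11 an aquaporin, pbs-7 a subunit of the proteasome and gst-26 a glutathione S-transferase, and no collagen was among the 8. The log2 ratio of cth-1 was -0.59, -0.63 and -0.73 with LDM in Cy5 and -0.01, -0.67 and -0.64 with LDM in Cy3. It was near 0 on LDM in Cy3 replicate 1 and lower on the rest, and its mean was -0.55 ± 0.14 (SE, n = 6; limma adjusted p = 0.249). Spearman's rho with the same mean was lower for 7 of the 8 and ran from 0.49 (cth-1 and pbs-7) to 0.94 (gst-26). None of the 8 was called by limma. Of the 90 other collagen genes that were ranked, 2 (sqt-2 and col-149) were among the first 100, and of 20 moulting genes 1 (lpr-3) was. The median r was 0.04 over all ranked genes, -0.23 over the col family, 0.12 over the body shape collagens outside the furrows and 0.37 over the moulting genes. All genes were read from the same 6 pairs of samples, so these values are a description with no test.

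Body shape collagens outside the furrows, whose mutants are Dumpy, rolling (rol, sqt), long (lon) or blistered (bli), gave 0 calls of 12 tested. At an unadjusted p under 0.05, 2 of them were lower and 1 was higher, beside 4.92% lower and 4.41% higher of all tested genes. Their median log2 ratio was -0.14, and 9 of 12 were below 0, beside 55.1% of all tested genes. The blister collagens bli-1 and bli-2, which form struts in the adult cuticle, had log2 ratios of -0.25 (below 0 on 5 of 6 arrays, limma adjusted p = 0.623) and -0.41 (below 0 on 6 of 6, limma adjusted p = 0.441). The roller and squat collagen sqt-1 was also below 0 on 6 of 6 arrays, with a log2 ratio of -0.30 and a limma adjusted p of 0.531. Its partner in genetics rol-6 was at 0.03 (limma adjusted p = 0.972), dpy-5 at -0.02 (limma adjusted p = 0.982) and sqt-3, an essential collagen, at -0.15 (limma adjusted p = 0.787). The single gene higher at the unadjusted threshold was dpy-17, with a mean of 0.87 and above 0 on 4 of 4 unmarked arrays (limma adjusted p = 0.445). It was at 0.37 and 0.59 on LDM in Cy5 replicates 1 and 3. It was at 2.07 and 0.44 on LDM in Cy3 replicates 2 and 3. It, bli-2 and lon-3, the lowest at -0.42 (limma adjusted p = 0.553), were named after their values were seen. Array weights called 4 of the list, bli-1, bli-2 and lon-3 lower and dpy-17 higher. The same fit called 834 of all 7989 genes lower and 574 higher. The probe of dpy-13 was marked by the image software on every array and was not tested, and dpy-14 was unmarked on 3 arrays and was not tested either.

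Of the numbered collagens (col family), 88 of 138 were tested and 0 were called. Their median log2 ratio was -0.14, with 61 of 88 below 0, beside 55.1% of all tested genes. Before adjustment, 11 of them were lower and 1 was higher at a p under 0.05. Among all tested genes 4.92% were lower and 4.41% higher at that threshold. The lowest p belonged to col-182 (log2 ratio -0.59, below 0 on 6 of 6 arrays, limma adjusted p = 0.144), chosen after its values were seen. Array weights called 17 of the family lower and 5 higher, in a fit that called 834 of 7989 genes lower and 574 higher. Per array the median of the family was -0.32, 0.02 and -0.25 with LDM in Cy5 and -0.15, -0.02 and 0.00 with LDM in Cy3. This order differed from that of the furrow collagens, which stood highest on LDM in Cy3 replicate 1, where the family was below 0.

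Enzymes that process collagens gave 0 calls of 10 tested, with a median log2 ratio of -0.12. The subunit of prolyl 4-hydroxylase dpy-18 was at -0.06, its partner pdi-2, a protein disulfide isomerase, at -0.08, and bli-4, a furin-like protease that cleaves procollagens, at -0.01. The astacin protease dpy-31, which trims collagen ends, was at -0.27 (limma adjusted p = 0.679). The thioredoxin-like dpy-11 was at -0.42 and below 0 on 6 of 6 arrays (limma adjusted p = 0.412). It was the only enzyme of the list with an unadjusted p under 0.05, beside 4.92% lower of all tested genes. Array weights called dpy-11 and phy-2, another prolyl 4-hydroxylase subunit, both lower, as they did 834 of all 7989 genes.

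Moulting genes were tested for 22 of 24, with 0 calls, a median log2 ratio of -0.16 and 18 below 0. Among all tested genes 55.1% were below 0. At an unadjusted p under 0.05, 5 moulting genes were lower and 0 were higher, beside 4.92% lower and 4.41% higher of all tested genes. The 5 were mlt-10 (-0.57), qua-1 (-0.51), nas-37, a protease that opens the old cuticle (-0.46), acn-1 (-0.44) and ptr-4 (-0.44). Their limma adjusted p values lay between 0.317 and 0.441. For mlt-10, which is transcribed with each moult, the log2 ratio was -1.71, -0.31 and -0.81 with LDM in Cy5 and -0.01, -0.01 and -0.56 with LDM in Cy3. It was thus below 0 on 6 of 6 arrays but near 0 on 2 of them. The nuclear receptor nhr-23, which drives the moulting cycle, was at -0.06 (limma adjusted p = 0.932). The list's median per array was -0.31, -0.18 and -0.37 with LDM in Cy5 and 0.10, -0.15 and -0.21 with LDM in Cy3, above 0 on the same array as the furrow collagens. The medians of collagen processing (0.05) and of the epidermal (0.12) and germline (0.15) markers were above 0 there too. Those of all remaining lists were below 0. Without LDM in Cy5 replicate 3, 1 moulting gene was called, the kinase gene nekl-2 at -0.83 (limma adjusted p = 0.0333), which was at -0.31 over all 6 arrays (limma adjusted p = 0.853). Array weights called 7 moulting genes lower, the 5 above among them, and 1 higher, beside 834 lower and 574 higher of all 7989 genes.

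**Figure D4:**
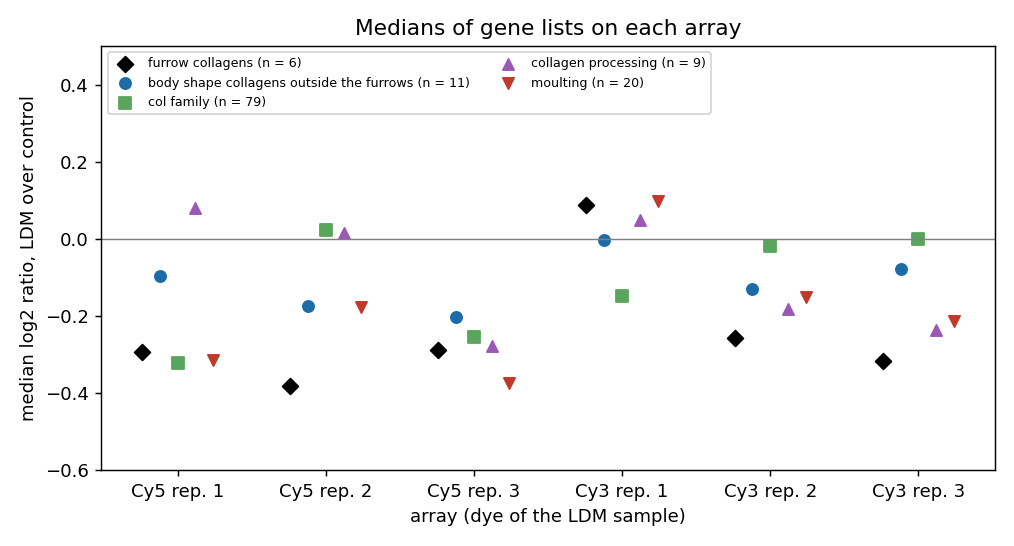
Points give the median log2 ratio of LDM over control (y axis) of 5 gene lists on each array (x axis, named by the dye of the LDM sample), over the genes of each list measured on all arrays. The furrow collagens (black diamonds) and the moulting genes (red triangles) lie above 0 on LDM in Cy3 replicate 1, at 0.09 and 0.10, and below 0 on the other 5 arrays. Collagen processing (purple triangles) lies above 0 on that array, at 0.05, and on LDM in Cy5 replicates 1 and 2.

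Genes that are switched on when furrows are lost were examined as 3 lists, and none of their members passed the test without array weights. With them gpdh-1 was called lower (limma adjusted p = 0.0175), cnc-1 lower (limma adjusted p = 0.0337), and nlp-34 and cnc-2 higher (limma adjusted p = 0.0264 and 0.0349). That fit called 834 of all 7989 genes lower and 574 higher. Of the osmolyte genes, 4 of 6 were tested, with a median log2 ratio of -0.10. The glycerol synthesis gene gpdh-1 was at -0.17 and -0.86 with LDM in Cy5 (replicates 1 and 3) and at -0.43, -1.12 and -1.22 with LDM in Cy3. It was below 0 on all 5 arrays where it was unmarked, with a mean of -0.72 ± 0.19 (SE, n = 5), and the limma p of 0.00760 became 0.327 after adjustment. Of 19 antimicrobial peptide genes, 16 were found on the array and 12 were tested, with a median of 0.07. At an unadjusted p under 0.05, 3 of these were higher, cnc-2 (0.62), nlp-34 (0.57) and cnc-4 (0.50), and 0 were lower. Among all tested genes 4.41% were higher and 4.92% lower at that threshold. The list's median was lowest on LDM in Cy5 replicate 2, at -0.51, and highest on replicate 3 of the same orientation, at 0.99. The probe of nlp-29, the best known of these peptides, was marked on every array and was not tested. Of the detoxification genes, 2 of 3 were tested, gst-4 at -0.10 (limma adjusted p = 0.950) and gcs-1 at -0.02 (limma adjusted p = 0.980), the latter named because it was the other gene tested.

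Markers of other cells and of age were read on the same arrays. The 4 epidermal markers tested had a median log2 ratio of -0.01 but ran from -0.45 (che-14, with an unadjusted p under 0.05) to 0.17 (lin-26), and their array medians from -0.49 to 0.31. The median was 0.09 for 6 of the intestine, -0.13 for 5 of body wall muscle, 0.05 for 6 of neurons and -0.15 for 6 of the germline. Of 7 genes of the adult stage (the yolk protein genes vit-1 to vit-6 and the adult collagen col-19), all were above background on at least 4 arrays and 5 were tested, vit-2 to vit-6, with medians of -1.31, -1.76 and -2.37 with LDM in Cy5 and of -2.93, -0.72 and 2.44 with LDM in Cy3. The 13 major sperm protein genes tested, of 15, had medians of -1.03, 0.03 and 0.80 with LDM in Cy3, and all 3 were below 0 with LDM in Cy5. On LDM in Cy3 replicate 1, where the furrow collagens were above 0, the vitellogenins were at their lowest. On LDM in Cy3 replicate 3 the vitellogenins were at their highest while all 6 furrow collagens were below 0. On each remaining array both medians were below 0. The furrow median was -0.32 on LDM in Cy3 replicate 3 and -0.29 on LDM in Cy5 replicate 3, where the vitellogenins were at 2.44 and -2.37. The part of developmental stage in the ratios of the furrow collagens was not tested.

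**Figure D5:**
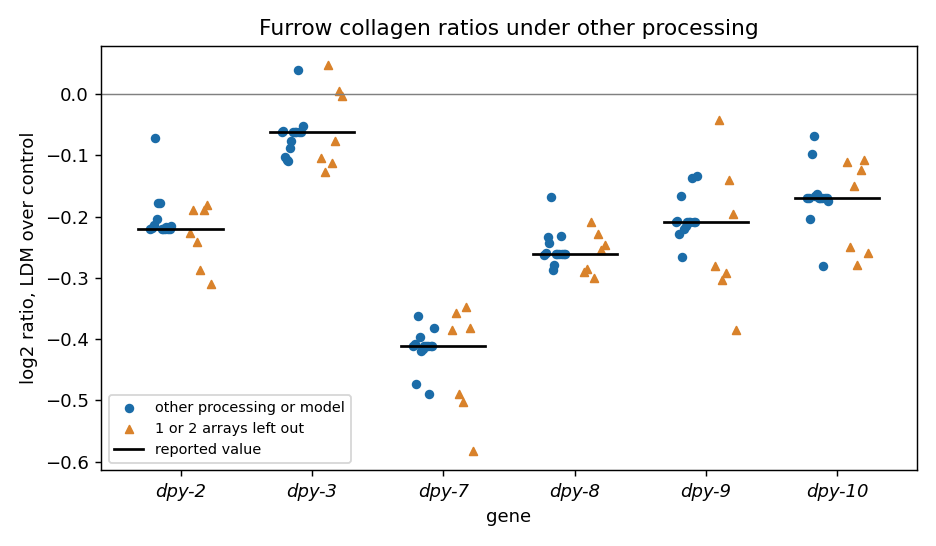
The black line is the reported log2 ratio of LDM over control of each furrow collagen (y axis), blue points are the values under other processing or models, and orange triangles are those with 1 or 2 arrays left out. Only dpy-3 crossed 0, from -0.13 to 0.05, and dpy-7 stayed between -0.58 and -0.35.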

How the data were processed

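For each spot the authors deposited scanner intensities in Cy3 and Cy5 with the local background, and the deposited percent of saturated pixels. The authors' series table holds log2 ratios, loess and Aquantile normalized in limma (version not given in the sources used here), for which r with the ratios below was 0.974 to 0.991. Each array gave 23232 spots, 742 of them control or empty.

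From the intensities, background was corrected by normexp with an offset of 50, and ratios were normalized by loess and Aquantile in limma 3.58.1 (R 4.3.3), turned to LDM over control, and tested by limma against 0 with a dye term. Spots that the image software marked (any code but 3, a code whose meaning is not stated) were left out. A probe needed at least 2 unmarked arrays per orientation, and a gene was represented by its brightest tested probe. Of gene probes, 21382 (95.1%) matched the RefSeq WBcel235 table, which gave symbols. Rank product p-values came from a gamma distribution. The scripts were tested on simulated data.

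The members and lists were chosen with earlier results of these data known. Named genes were the members, the 8 genes most like them, called list genes and 15 genes chosen by name. Others are list genes that passed the unadjusted threshold, an alternative or a list's extreme, or the remaining tested gene of a list, and so were named after their values were seen. The samples are independent biological replicates per the methods. The precision is limited by the 6 arrays. The deviations of same-numbered arrays from the mean of their orientation had r of -0.03, 0.41 and 0.23 for replicates 1, 2 and 3. Arrays of different number and orientation had r from -0.41 to 0.03. The main fit did not take the numbers as pairs, and a fit with them as a block is given below. Alternatives changed the background correction, normalization, marked and dim spots, dye term, probe choice, test and arrays used.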

Additional observations from a re-analysis of the deposited data

Results flagged for a closer look

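Among 26 sets of values tested for a sample far from the rest, 2 had one, and chance flags about 1 in 20 such sets. The control level of dpy-9 on LDM in Cy3 replicate 1 was 12.62 on the log2 scale, where its gap to the nearest other array was 0.698 of the whole range. The median log2 ratio of the furrow collagens on the same array, 0.0869, stood apart from those of the other 5 arrays by 0.735 of the range.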

How the results depend on the processing

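Over 21 alternatives each, dpy-2 stayed between -0.31 and -0.07 on the log2 scale, dpy-7 between -0.58 and -0.35, dpy-8 between -0.30 and -0.17, dpy-9 between -0.39 and -0.04 and dpy-10 between -0.28 and -0.07. Some alternatives left every member's ratio as reported and so could not move it. They were dim probes left out, no dye term, the replicate block, the mean of all probes and rank product. The ratio of dpy-3 changed sign in 3, at 0.0398 with array weights, at 0.0474 when LDM in Cy5 replicate 3 was left out and at 0.00484 when LDM in Cy3 replicate 3 was, and lay between -0.13 and 0.05 with 1 array left out. Array weights, from 0.205 for LDM in Cy5 replicate 3 to 3.63 for LDM in Cy3 replicate 2, gave 1 call among the furrow collagens (dpy-7, log2 ratio -0.49), with 574 genes higher and 834 lower. The next highest weights were 3.62 for LDM in Cy5 replicate 1 and 1.61 for LDM in Cy3 replicate 1. Over all genes, 25 were called higher and 5 lower as reported. Rank product gave 75 and 28 of the 6491 genes measured on all arrays. With 1 array left out the counts ran from 5 to 43 higher and from 0 to 16 lower. Among the arrays with LDM in Cy5, leaving out replicate 1 gave 5 higher and 0 lower, replicate 2 gave 43 and 8, and replicate 3 gave 25 and 16. Among those with LDM in Cy3, leaving out replicate 1 gave 6 and 1, replicate 2 gave 5 and 1, and replicate 3 gave 7 and 1. Without both arrays that share a control number, a choice made after seeing the data, 4 were higher and 1 lower. The lower count was also 3 with print-tip loess, 10 with scale normalization and 3 with marked spots kept. With the replicate number as a block, 21 genes were higher and 3 lower, dpy-7 was at -0.41 (limma adjusted p = 0.531), and no furrow collagen was called. The count of moulting genes called ran from 0 to 1 with 1 array left out, the 1 being nekl-2 when LDM in Cy5 replicate 3 was left out. The causes of these changes were not tested. A term for the date of image analysis was not run, since 1 date holds a single array and the term equals leaving that array out.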
